A study of Rattus norvegicus with 46 samples.

Results

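The frontal lobe pieces compared here are 10 striatum-rich and 10 striatum-poor pieces out of 46 arrays, selected on the measured levels of Drd2, Penk and Adora2a. Each array holds RNA from about 30 mg of frontal lobe of a male F344 rat, 11 to 12 weeks old, killed 96 h after a single dose of vehicle or chlorpyrifos (CPF), an organophosphate insecticide. The doses were 0.5, 1, 5, 10, 30 and 50 mg/kg, spread over 3 experiments, A, B and C, and no genetic change is named for any animal. The labels of the vehicle arrays of experiment B also carry a line naming 1 mg/kg, against their titles, which were followed. The titles of 3 usable arrays of experiment C call them a first repeat without saying of what, and 1 of them, vehicle animal 1, is the highest-scoring striatum-rich array. Whether they are separate animals is not stated, and without that array 209 probe sets were called higher and 114 lower, against 239 and 146 with it. The labels name no separate dissection of striatum and cortex.

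The striatum-rich and striatum-poor groups are not treatment groups. The score that sorted them is the mean of log2(intensity / array median) over the 3 genes, and the 10 highest and 10 lowest of 39 usable arrays were taken whatever their dose. The striatum-rich group holds 3 arrays of experiment A, 3 of B and 4 of C, with 4 vehicle animals, 1 each at 0.5, 1, 5 and 50 mg/kg and 2 at 10 mg/kg. The striatum-poor group holds 5 arrays of A, 3 of B and 2 of C, with 3 vehicle animals, 1 at 0.5, 2 at 1, 3 at 10 and 1 at 30 mg/kg. The other 19 arrays, 6 of A, 5 of B and 8 of C, lie between them and served as arrays that the comparison of the groups did not use. Of the 10 vehicle arrays, 4 were striatum-rich, 3 striatum-poor and 3 in neither group. Of the 29 dosed arrays, 6 were striatum-rich, 7 striatum-poor and 16 in neither group.

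Before the results, 7 of the 46 arrays were left out, since their values correlated with those of the other 39 between -0.0068 and 0.0025, against 0.935 to 0.979 among the 39. Experiment A lost 3 arrays this way (animal 1 of the vehicle group, animal 4 at 1 mg/kg and animal 1 at 50 mg/kg), B lost 1 (animal 1 at 0.5 mg/kg) and C lost 3 (animal 2 at 5 mg/kg, both animals 1 and 2 at 30 mg/kg). A pair of arrays in the groups stood apart. The striatum-poor array of 1 mg/kg animal 1 in experiment C had a 3' to 5' intensity ratio of beta-actin control probes, a measure of RNA integrity, of 4.72, against 1.32 to 2.10 in the other striatum-poor arrays and 1.25 to 1.83 in the striatum-rich arrays. The striatum-rich array of 5 mg/kg animal 1 in experiment B had a median intensity of 112, against 254 to 276 in the other striatum-rich arrays. The number of arrays limits the precision of every value, and in pieces of tissue fewer cells of a type and less RNA per cell cannot be told apart.

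The striatum lies beneath the frontal cortex and consists mainly of GABAergic projection neurons of a direct and an indirect pathway. Direct pathway neurons carry the dopamine receptor Drd1 and make the peptide precursors Tac1 and Pdyn, and indirect pathway neurons carry Drd2 and the adenosine receptor Adora2a and make the enkephalin precursor Penk. Both kinds relay dopamine signals through cyclic AMP, protein kinase A and the phosphatase inhibitor encoded by Ppp1r1b, while cortical output comes mainly from glutamatergic pyramidal neurons.

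Promoter sequences from RefSeq on rat assembly GRCr8 are shown for Rarb, a retinoic acid receptor, and Tac1, both higher in striatum-rich arrays, and for Vip, an interneuron peptide that was lower. They were chosen because 2 motifs named for signals in these cells can be seen in them. Each run is 300 bases, from 250 before to 50 after the annotated start, 5′ to 3′, and all 3 lie on the + strand. Rarb is at chr15:11336142-11336441, Tac1 at chr4:36645333-36645632 and Vip at chr1:44470230-44470529. Capitals mark the repeated letters of a retinoic acid response element in Rarb and the core of a cyclic AMP response element in Tac1 and Vip.
Rarb: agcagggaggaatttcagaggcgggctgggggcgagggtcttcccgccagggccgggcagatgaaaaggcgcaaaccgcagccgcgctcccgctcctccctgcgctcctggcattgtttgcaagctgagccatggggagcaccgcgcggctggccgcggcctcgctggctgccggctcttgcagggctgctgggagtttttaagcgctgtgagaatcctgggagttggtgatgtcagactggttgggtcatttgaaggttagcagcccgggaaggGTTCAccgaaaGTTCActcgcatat
Tac1: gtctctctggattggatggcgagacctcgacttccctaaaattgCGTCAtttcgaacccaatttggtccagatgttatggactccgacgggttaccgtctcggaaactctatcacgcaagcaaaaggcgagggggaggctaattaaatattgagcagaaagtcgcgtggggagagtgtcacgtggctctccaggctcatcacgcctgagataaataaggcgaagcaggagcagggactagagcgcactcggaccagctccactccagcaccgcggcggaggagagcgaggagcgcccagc
Vip: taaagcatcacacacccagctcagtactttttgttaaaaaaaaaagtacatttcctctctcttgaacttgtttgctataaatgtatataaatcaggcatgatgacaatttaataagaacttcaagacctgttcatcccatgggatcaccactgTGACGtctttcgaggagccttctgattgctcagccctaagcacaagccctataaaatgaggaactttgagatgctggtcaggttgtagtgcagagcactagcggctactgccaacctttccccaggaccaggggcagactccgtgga

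The motif searched for in Rarb was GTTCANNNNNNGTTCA on either strand, chosen after its sequence had been seen, and it runs from base 276 to base 291. It was found in 126 of 27457 genes with such a window (0.459%), in 3 of the 6686 tested genes with one, and in 1 of 162 genes called higher, which is Rarb. The cyclic AMP core searched for was TGACG on either strand, found at bases 45 to 49 in Tac1 and 154 to 158 in Vip. It was present in 33.7% of tested genes with a window, in 37 of 162 genes called higher (22.8%) and in 21 of 81 called lower (25.9%). These matches describe letters in the windows and nothing about binding.

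The 3 sorting genes are given as a description only. Drd2 ran from 1.79 through a median of 2.19 to 2.74 log2 units above the array median in striatum-rich arrays, and from -0.53 through 0.07 to 0.48 in striatum-poor arrays. Penk ran from 4.50 through 4.86 to 5.14 in striatum-rich arrays and from 1.78 through 2.71 to 3.46 in striatum-poor arrays, so its intensity stayed between 928 and 2926 in the striatum-poor pieces. Adora2a ran from 1.62 through 1.93 to 2.65 in striatum-rich arrays and from -1.92 through -1.06 to 0.02 in striatum-poor arrays. The 3 genes do not overlap between the groups, which the sorting favours. The score was 2.77 in the lowest striatum-rich array, vehicle animal 3 of experiment C, and 2.74 in the next array outside, 1 mg/kg animal 1 of experiment A. It was 1.24 in the highest striatum-poor array, 1 mg/kg animal 2 of experiment A, and 1.36 in the next outside, 30 mg/kg animal 2 of experiment B.

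**Figure D1:**
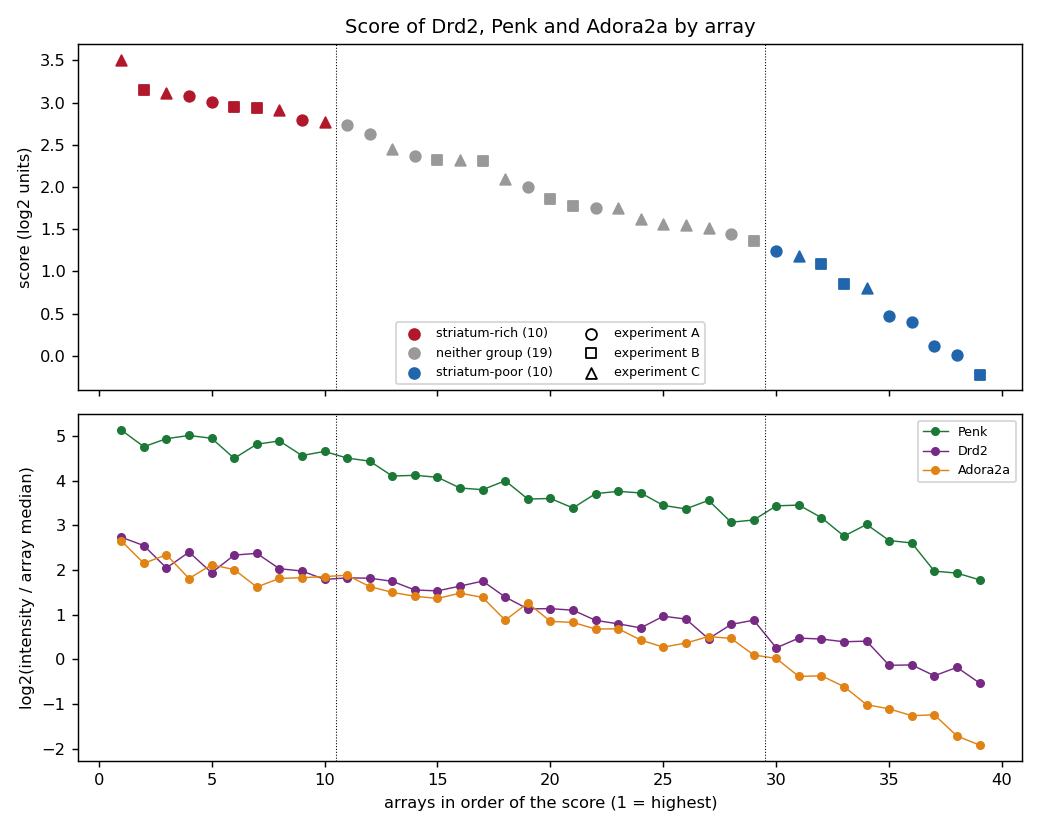
Score of each of the 39 arrays (upper panel, log2 units; symbols give the experiment) and the log2(intensity / array median) of its 3 genes (lower panel), with arrays in order of the score and dotted lines at the group limits. The score falls from 3.51 to -0.22 with no gap at either limit, and Adora2a falls below the array median in most striatum-poor arrays.

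The question was which other transcripts moved with these 3 genes from piece to piece. The limma fit of 11106 probe sets held the experiment as a further term. In striatum-rich arrays 239 (2.15%) were higher and 146 (1.31%) lower at an adjusted p under 0.05, a threshold used throughout, which is 3.47% in either direction. Without the 3 sorting genes, 236 probe sets of 192 named genes were higher, with a median log2 difference of 0.50, and 146 of 115 named genes were lower, with a median of -0.39. Differences over 1 log2 unit were held by 32 of the higher and 1 of the lower probe sets. The groups did not overlap in 49 of the 236 and in 3 of the 146, where over all probe sets 0.468% lay wholly above and 0.027% wholly below. Those shares include the called probe sets, and groups that lie wholly apart favour a call, so the contrast is no separate check. All 236 and all 146 had the direction of their call within each of the 3 experiments. These are the same arrays that gave the calls, so the shared direction is no separate check. Per gene, with the probe set of highest mean, 186 of 8003 genes (2.32%) were higher and 107 (1.34%) lower.

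Counts moved with the choice of arrays. Within experiment A alone 36 probe sets were higher and 4 lower, within B 48 and 3, and within C 3 and 1, with the sorting genes included. Among vehicle arrays alone, 4 against 3, 8 probe sets were higher and 0 lower. Apart from Penk and Adora2a these 8 were Tac1, Ppp1r1b, Gng7, Pcp4 and both probe sets of Drd1. Each was also called higher in the full comparison, which includes these arrays. No vehicle striatum-poor array came from experiment C. With the experiment in the fit, the striatum-rich vehicle arrays of C therefore informed the spread but not the difference, which rests on A and B. Among dosed arrays alone 77 were higher and 22 lower. Without the dim array of experiment B 202 were higher and 111 lower, without the array of high beta-actin ratio 218 and 128, and with that ratio as a number in the fit 145 and 68. The part of RNA quality in the counts was not tested further.

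Direct pathway genes, none of which entered the score, were among the largest differences. Tac1, the precursor of substance P, ran from 9.66 through a median of 10.14 to 11.12 log2 intensity in striatum-rich arrays and from 5.53 through 7.25 to 7.92 in striatum-poor arrays. Every striatum-rich array lay above every striatum-poor array. Tac1 was higher by 3.21 ± 0.26 on the log2 scale (± SE, 10 against 10 arrays, 9.26-fold, limma adjusted p = 9.43e-08), with differences of 2.84, 3.61 and 3.29 in experiments A, B and C. Drd1, the dopamine receptor of the direct pathway, ran from 9.86 through 10.58 to 11.34 in striatum-rich arrays and from 7.21 through 8.05 to 8.94 in striatum-poor arrays, again with no overlap. It was higher by 2.48 ± 0.21 (5.58-fold, limma adjusted p = 1.64e-07), and its other probe set was higher by 2.21. Pdyn, the dynorphin precursor, ran from 7.75 through 8.46 to 9.14 against 5.98 through 6.77 to 7.39 and was higher by 1.79 ± 0.19 (3.46-fold, limma adjusted p = 3.18e-06), with the groups apart.

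Of 9 direct pathway genes listed, 5 were tested, and 3 of them, the genes just given, were higher, against 2.32% of all 8003 genes. The 2 that did not pass had differences of -0.10 and 0.45, the latter for Chrm4, a muscarinic receptor (adjusted p = 0.113). A further 2 lay below the filter on dim probe sets and 2 had no probe set with their symbol. The median difference of the tested members was 1.79, against 0.0029 over all 8003 genes. Of 4 further indirect pathway genes listed beside the sorting genes, none could be tested, with 2 below the filter and 2 without a probe set. The direct pathway was therefore measured on genes that the rule did not use, and the indirect pathway was not.

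Genes shared by both kinds of projection neuron followed the same pattern. Ppp1r1b, which encodes the dopamine-regulated phosphatase inhibitor DARPP-32, ran from 11.85 through a median of 12.34 to 12.82 log2 intensity in striatum-rich arrays and from 9.68 through 10.10 to 10.70 in striatum-poor arrays. The groups lay more than 1 log2 unit apart at their nearest arrays, and Ppp1r1b had the smallest adjusted p of the comparison outside the sorting genes (difference 2.16 ± 0.14, 4.47-fold, limma adjusted p = 5.78e-09). Pde1b, a calcium-dependent phosphodiesterase, ran from 9.53 through 9.86 to 10.49 against 5.49 through 7.25 to 9.15. Its striatum-poor arrays spread widely without reaching the other group, with the array of high beta-actin ratio lowest and 10 mg/kg animal 1 of experiment C highest, and the difference was 2.54 ± 0.37 (limma adjusted p = 2.06e-04). Rgs9, which speeds the shut-off of G proteins downstream of dopamine receptors, ran from 10.30 through 10.59 to 11.54 against 8.46 through 8.71 to 9.52 and was higher by 1.82 ± 0.13 (limma adjusted p = 2.38e-08).

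Other signalling genes of these neurons were 2 to 4 times as high in striatum-rich arrays, with no overlap between groups. The sodium channel subunit Scn4b differed by 1.91 ± 0.23 (3.75-fold), the exchange factor Rasgrp2 by 1.70 ± 0.17 (3.26-fold) and the G protein subunit Gng7 by 1.66 ± 0.15 (3.17-fold). Adcy5, the main adenylate cyclase of the striatum, differed by 1.59 ± 0.14 (3.01-fold), the small GTPase Rasd2 by 1.56 ± 0.14 (2.94-fold) and the striatum-enriched phosphatase Ptpn5 by 1.35 ± 0.13 (2.54-fold). The cytoskeletal gene Actn2 was higher by 1.26 ± 0.14 (2.40-fold) and Pcp4, a calmodulin-binding protein, by 1.11 ± 0.11 (2.16-fold). Adjusted p-values in limma for these 8 ran from 3.24e-07 for Adcy5 to 2.47e-05 for Scn4b. Pde10a, the phosphodiesterase typical of projection neurons, was higher by 1.19 ± 0.23 (limma adjusted p = 5.08e-03), but its groups overlapped and its differences of 1.30 in A, 1.99 in B and 0.15 in C were unequal in size.

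**Figure D2:**
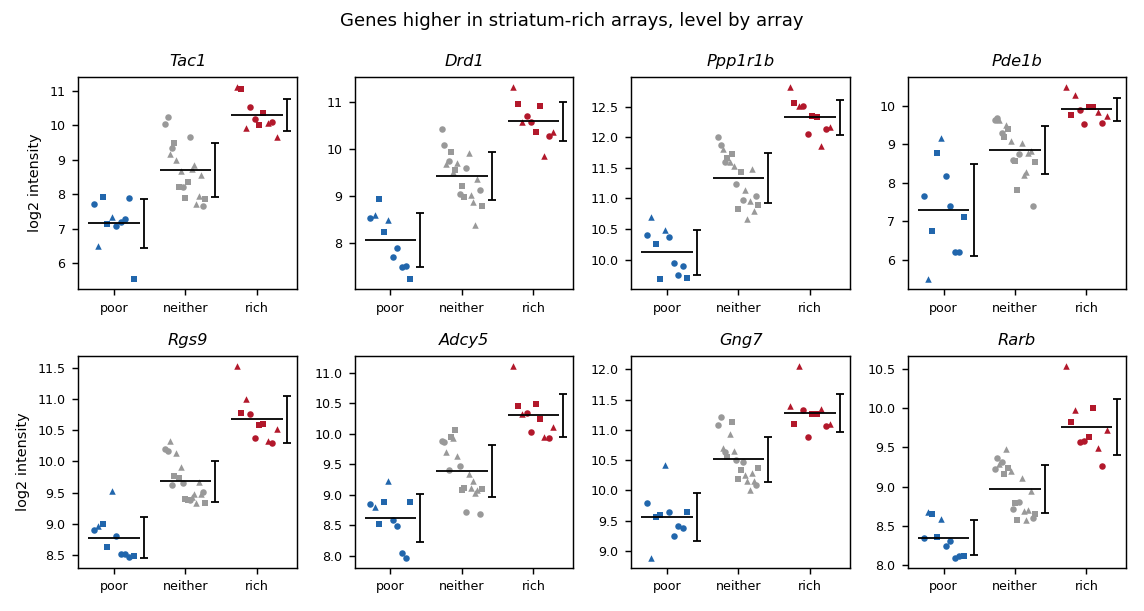
Log2 normalised intensity of 8 genes in striatum-poor (10), neither (19) and striatum-rich (10) arrays; circles are experiment A, squares B and triangles C, lines are means and error bars 1 SD. In each gene every striatum-rich array lies above every striatum-poor array, and the arrays of neither group span the range between them.

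Of 32 projection neuron genes listed for both pathways, 24 were tested and 17 were higher, with 0 lower and a median difference of 1.15. Genes called higher were 2.32% of all 8003, and genes called lower 1.34%. The 7 that did not pass lay between -0.41 and 0.65, among them Foxp1, a transcription factor (0.65 ± 0.22, adjusted p = 0.118), Meis2, another (0.55 ± 0.20, adjusted p = 0.150), and Hpca, a calcium sensor (0.46 ± 0.16, adjusted p = 0.130). Foxp1 differed by 1.31 within experiment B and by -0.22 within C. Of the remaining listed genes, 2 lay below the filter and 6 had no probe set. Arpp21, a cyclic AMP-regulated phosphoprotein, was higher by 0.74 on its brightest probe set and by 1.16 on another, and stood at -0.27 without passing on the third. Without the array of high beta-actin ratio 18 of the 24 passed, and the median was 1.20. Within experiment C, which had only 2 striatum-poor arrays, none of the 24 passed and the median was 0.83.

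Transcription factors of the ventral forebrain, where the striatum forms, were also on the higher side. Rarb, whose promoter is shown above, ran from 9.26 through a median of 9.68 to 10.54 log2 intensity in striatum-rich arrays and from 8.09 through 8.32 to 8.68 in striatum-poor arrays. The groups did not overlap, and Rarb was higher by 1.33 ± 0.11 (2.51-fold, limma adjusted p = 9.43e-08), with 1.25, 1.45 and 1.30 in the 3 experiments. Its partner receptor Rxrg was higher by 0.78 ± 0.15, the homeobox gene Dlx5 by 0.70 ± 0.13 and Pbx3 by 1.06 ± 0.27, with groups that overlapped in all 3. All 7 tested factors of 21 listed had positive differences, against 4093 of all 8003 genes, and the median was 0.70. Of the 7, 4 passed as higher, against 2.32% of all genes. Rarb, Rxrg, Foxp1 and Meis2 are also members of the projection neuron list above, so the lists are not separate. Pbx3 did not pass in 8 of the 20 fits that left out 1 array, with adjusted p up to 0.0702.

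Of 12 tested retinoid signalling genes of 16 listed, 4 were higher and 0 lower, with a median of 0.16. Among all 8003 genes 2.32% were higher and 1.34% lower. Beside Rarb and Rxrg these were the retinoic acid binding proteins Crabp1 (0.61 ± 0.13) and Crabp2 (0.55 ± 0.14). Rbp4, a retinol carrier, did not pass (0.72 ± 0.20, adjusted p = 0.0506). Crabp2 did not pass in 3 fits that left out 1 array, namely animal 4 at 50 mg/kg (A), animal 2 at 0.5 mg/kg (B) or animal 1 at 10 mg/kg (C).

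Second messenger genes split between a few large differences and many small ones, where 2.32% of all 8003 genes were higher and 1.34% lower. Among 17 tested phosphodiesterases and cyclases 4 were higher and 0 lower, Pde1b, Pde10a, Adcy5 and the guanylate cyclase subunit Gucy1a1 (0.54 ± 0.09), and the other 13 lay between -0.37 and 0.22. Among 28 G protein and RGS genes 5 were higher and 0 lower, Gng7, Rgs9, Rgs8 (0.61 ± 0.10), Rgs2 (0.43 ± 0.08) and Gnb5, the partner subunit of Rgs9 (0.30 ± 0.07), while the list median was 0.01. Among 29 genes of protein kinase A and phosphatases 1 and 2A 6 were higher and 0 lower. Beside Ppp1r1b and Arpp21 these included the phosphatase 1 catalytic subunit Ppp1ca, which ran from 11.43 through 11.61 to 11.86 against 11.00 through 11.18 to 11.33. Its difference was small, 0.44 ± 0.05 (1.36-fold), but the groups did not overlap (limma adjusted p = 9.54e-06). The phosphatase inhibitors Ppp1r1a (0.46 ± 0.08) and Ppp1r14a (0.62 ± 0.15) and the regulatory subunit Ppp2r2a (0.28 ± 0.07) also passed. Ppp2r2a passed in 10 of the 20 fits without 1 array. Ppp1r14a did not pass without the array of high beta-actin ratio (limma adjusted p = 0.0547).

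Lists of receptors and transmitter genes gave a few calls each, among them the projection neuron genes Drd1 and Pdyn. Over all 8003 genes 2.32% were higher and 1.34% lower. Of 18 monoamine genes tested of 35 listed, 2 were higher, Drd1 and the adrenergic receptor Adra2c (0.74 ± 0.11, groups apart), and 0 lower. Of 10 opioid, cannabinoid and adenosine genes, Pdyn and the adenosine-producing ectonucleotidase Nt5e (0.56 ± 0.12) were higher. The nociceptin receptor Oprl1 was lower by 0.65 ± 0.13 on 1 probe set, while its 2 others stood at -0.17 and -0.21 without passing. Of 15 cholinergic genes tested of 25 listed, 1 was higher and 0 lower. It is Slc5a7, the choline transporter of cholinergic neurons, while Chat and Slc18a3 on the same list lay below the filter. Slc5a7 ran from 6.52 through 7.68 to 8.80 against 5.46 through 6.48 to 8.06 and was higher by 1.19 ± 0.27 (2.29-fold, limma adjusted p = 0.0157). The groups overlapped, and only 2 striatum-rich arrays lay above all striatum-poor ones.

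The GABA system showed 15 of 19 tested genes with positive differences, of which 1 was higher, and 2 others were lower. Over all 8003 genes 4093 were positive, 2.32% were higher and 1.34% lower. Slc32a1, the vesicular GABA transporter, ran from 10.25 through a median of 10.50 to 11.07 against 9.57 through 9.88 to 10.63 and was higher by 0.64 ± 0.13 (limma adjusted p = 8.32e-03). The synthesising enzymes Gad1 (0.32 ± 0.11, adjusted p = 0.107) and Gad2 (0.58 ± 0.20, adjusted p = 0.113) did not pass. The receptor subunits Gabbr2 (-0.41 ± 0.08) and Gabra5 (-0.50 ± 0.12), the latter known for its level in cortex and hippocampus, were lower. Gabra5 did not pass without animal 1 at 10 mg/kg or animal 4 at 50 mg/kg in A, or animal 2 at 0.5 mg/kg in B.

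For the channel and glutamate lists that follow, the shares over all 8003 genes were 2.32% higher and 1.34% lower. Of 32 potassium channel genes tested, 7 were higher and 1 lower, with a list median of -0.06. Higher members included the background channel Kcnk2 (0.77 ± 0.11), the voltage-gated subunits Kcna5 (0.63 ± 0.13), Kcnd1 (0.55 ± 0.09) and Kcnh4 (0.44 ± 0.11), and the accessory subunits Kcnab1 (0.62 ± 0.12) and Kcnip2 (0.62 ± 0.12). Kcnh4 did not pass without animal 1 at 10 mg/kg in A or the array of high beta-actin ratio. The potassium list held 6 calls without the latter array, 5 with that ratio in the fit and 3 among dosed arrays alone. The lower member, named after its value was seen, was the inward rectifier Kcnj6 (-0.50 ± 0.14), which was also lower by 0.42 on another probe set and did not pass on 2 more. Of 23 sodium and calcium channel genes, Scn4b and the calcium channel subunit Cacna2d3 (0.60 ± 0.12) were higher and 0 lower. Of 28 glutamate receptor and transporter genes, the metabotropic receptor Grm4 (0.54 ± 0.13) was higher and Grm2 lower, as described next. Grm4 did not pass without animal 4 at 50 mg/kg in A or the array of high beta-actin ratio, which left 1 call in the list, and the list held 4 calls without animal 2 of the vehicle group in A, or without animal 3 at 0.5 mg/kg or of the vehicle group in B.

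**Figure D3:**
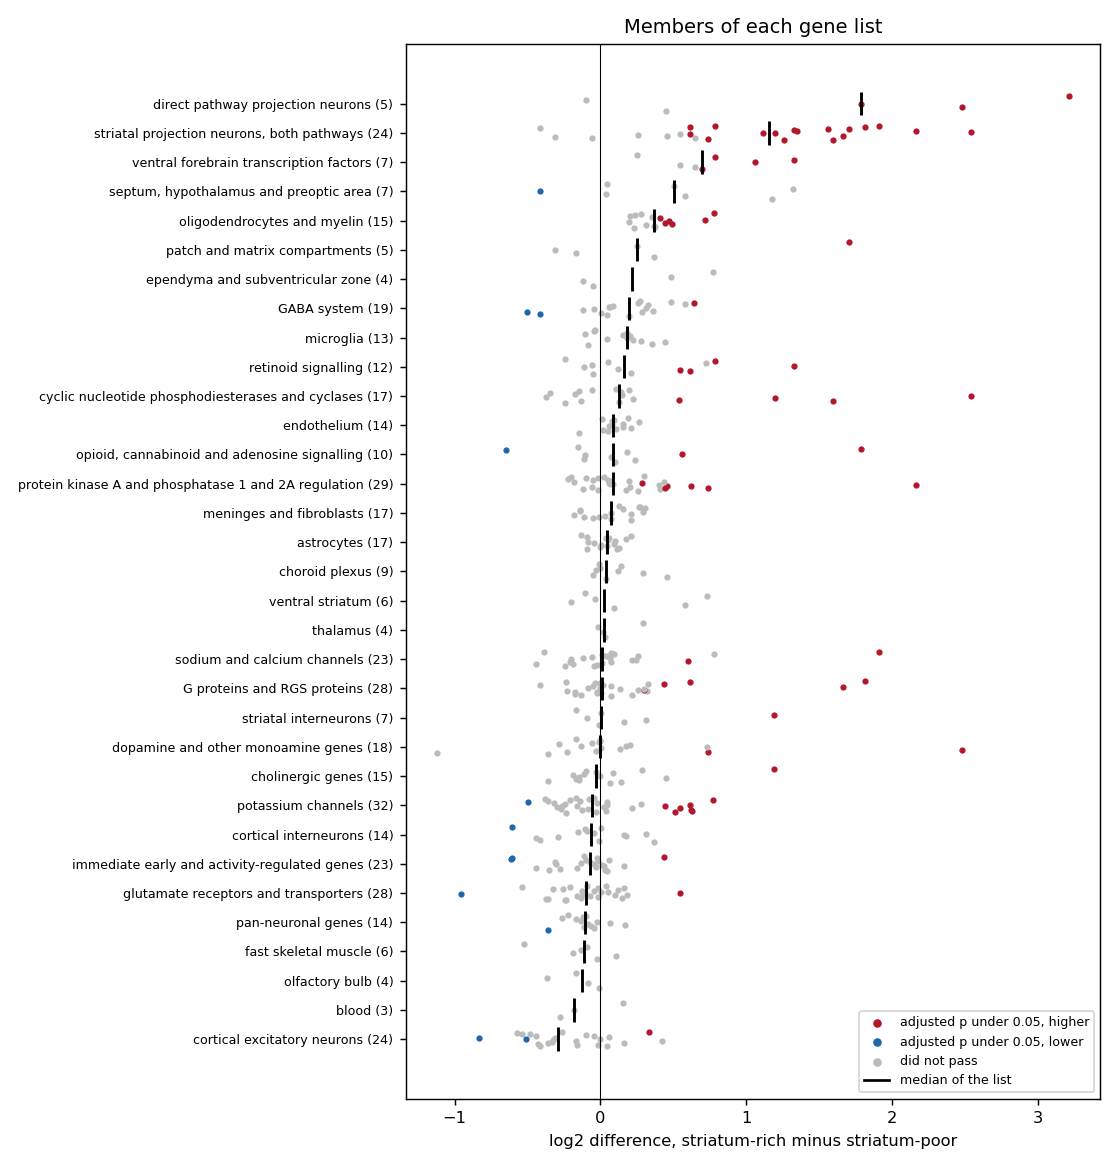
Log2 difference between striatum-rich and striatum-poor arrays of each tested member of 33 gene lists, with the number tested in brackets; red and blue points passed at an adjusted p under 0.05 and black bars are list medians. The lists of projection neurons stand farthest to the right, with medians of 1.79 and 1.15, and cortical excitatory neurons farthest to the left, at -0.29.

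Genes lower in striatum-rich arrays had smaller differences, and several are known from cortical pyramidal neurons and interneurons. Nrn1, an activity-regulated growth protein, ran from 10.39 through a median of 10.81 to 11.35 log2 intensity in striatum-rich arrays and from 11.35 through 11.49 to 11.66 in striatum-poor arrays. It was the only named gene wholly lower in the striatum-rich group (-0.60 ± 0.11, 0.658-fold, limma adjusted p = 2.19e-03), and its nearest arrays were level to 2 decimals. Neurod2, a transcription factor of pyramidal neurons, ran from 7.29 through 7.64 to 8.34 against 7.76 through 8.54 to 9.10 and was lower by 0.84 ± 0.16 (limma adjusted p = 4.79e-03). Of its 10 striatum-rich arrays, 8 lay below all striatum-poor ones.

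Grm2, a presynaptic glutamate receptor, ran from 7.35 through a median of 8.12 to 8.92 against 8.34 through 8.97 to 9.69. Its groups overlapped, with 6 striatum-rich arrays below all striatum-poor ones, and the difference was -0.96 ± 0.16 (limma adjusted p = 9.12e-04). The neuropeptide genes Grp (-0.91 ± 0.19), Adcyap1 (-0.89 ± 0.16) and Vip (-0.61 ± 0.14), the transcription factors Nr2f1 (-0.70 ± 0.11) and Nr4a3 (-0.61 ± 0.11), and Lingo1, an axon growth inhibitor (-0.61 ± 0.14), were also lower. Adjusted p-values in limma for these 6 ran from 5.19e-04 for Nr2f1 to 0.0158 for Vip.

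Psd, a guanine nucleotide exchange factor, had the largest difference on the lower side, -1.68 ± 0.32 (limma adjusted p = 3.62e-03), and the widest spread. It ran from 4.76 through a median of 5.92 to 8.96 in striatum-rich arrays and from 7.59 through 8.25 to 9.56 in striatum-poor arrays. The striatum-rich arrays of experiment A stood high, at 7.45, 8.29 and 8.96, and those of B and C between 4.76 and 7.07. The differences were -0.68 in A, -2.47 in B and -2.21 in C.

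Of 24 cortical excitatory neuron genes tested of 32 listed, 19 had negative differences and the median was -0.29, but only 2 passed as lower, Neurod2 and Mef2c (-0.51 ± 0.10), and 1 as higher, Tle4 (0.33 ± 0.09), a corepressor found in deep-layer cortex and in striatum. Slc17a7, the main vesicular glutamate transporter of cortex, ran from 11.09 through 12.07 to 12.50 against 11.80 through 12.49 to 12.90 and did not pass (-0.54 ± 0.16, adjusted p = 0.0721). Stx1a, a release protein, stood at -0.57 ± 0.16 (adjusted p = 0.0535). Among dosed arrays alone none of the 24 passed. The number that passed also moved from 3 to 8 without vehicle animal 2 of experiment A to 7 without animal 4 at 30 mg/kg in B, and to 5 without animal 2 at 1 mg/kg in A, animal 3 at 0.5 mg/kg in B or animal 4 at 10 mg/kg in C. Tle4 did not pass in 9 of the 20 fits without 1 array. Of 14 cortical interneuron genes Vip was lower and 0 higher, and Npy (0.32 ± 0.09, adjusted p = 0.0636) and Cck (-0.41 ± 0.12, adjusted p = 0.0569) did not pass. The interneuron list held 2 calls without the array of high beta-actin ratio, animal 2 or 3 of the vehicle group or animal 3 at 10 mg/kg in A, or animal 4 at 10 mg/kg in C. It held 3 without animal 2 at 1 mg/kg in A or animal 3 of the vehicle group in C. Of 14 genes of neurons in general 12 were negative, and 1, Elavl4 (-0.36 ± 0.09), passed, though not in 8 of the 20 fits without 1 array. Over all 8003 genes 3910 were negative, 2.32% passed as higher and 1.34% as lower.

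All 15 tested of 22 listed oligodendrocyte and myelin genes had positive differences, against 4093 of all 8003 genes. Of the 15, 6 passed as higher, where 2.32% of all genes did. The median was 0.36, with list medians of 0.10 in experiment A, 0.48 in B and 0.57 in C. Mobp, a myelin protein, ran from 12.45 through a median of 12.77 to 13.02 against 11.88 through 12.33 to 12.69 and was higher by 0.47 ± 0.10 (limma adjusted p = 0.0121). Mog, another, ran from 9.93 through 10.24 to 11.07 against 9.15 through 9.45 to 10.46 and was higher by 0.72 ± 0.17 (limma adjusted p = 0.0211). Groups overlapped in both. Ugt8, a lipid enzyme of myelin, was higher by 0.78 ± 0.20, Mag by 0.49 ± 0.12, Mal by 0.44 ± 0.12 and the transcription factor Olig1 by 0.41 ± 0.11.

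Mobp passed in all 20 fits without 1 array. Mag and Mog did not pass in 1, that without the array of high beta-actin ratio, Ugt8 not in 7, Olig1 not in 13 and Mal not in 15. Without the array of high beta-actin ratio 1 of the 15 passed, with a median of 0.32, and with that ratio as a number in the fit none passed, with a median of 0.29. None passed among dosed arrays alone. The number was 3 without animal 2 of the vehicle group or at 0.5 mg/kg in B, and without animal 1 of the vehicle group, animal 3 at 1 mg/kg or animal 1 at 10 mg/kg in C. The summed intensity of the 15 genes ran from 39448 to 59044 in striatum-rich and from 30749 to 47936 in striatum-poor arrays. The part of white matter in the other differences was not tested.

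**Figure D4:**
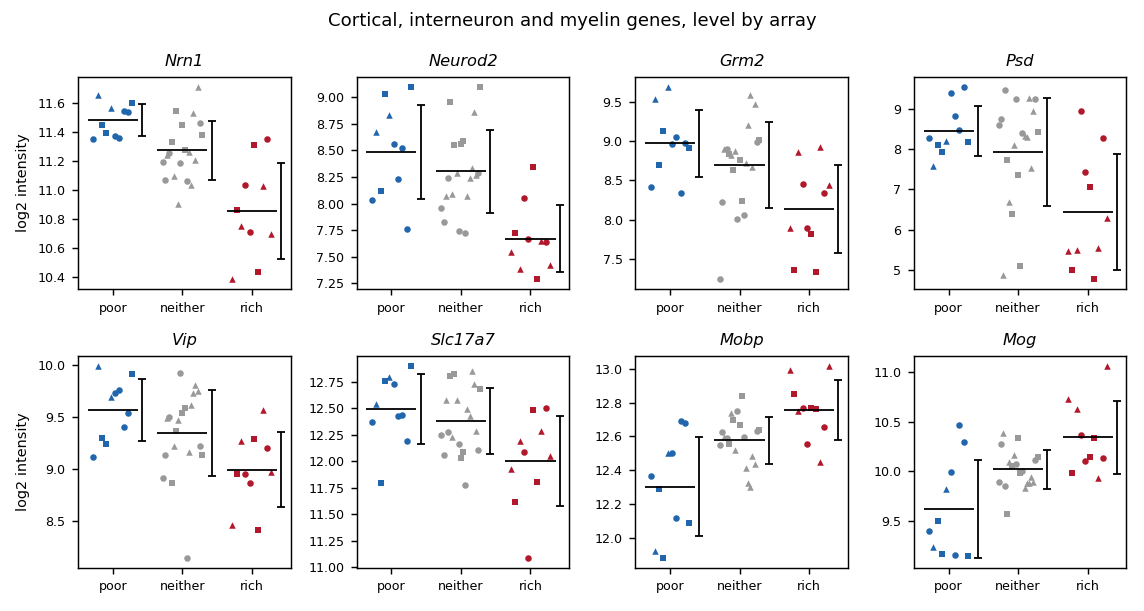
Log2 normalised intensity of 8 cortical, interneuron and myelin genes in striatum-poor (10), neither (19) and striatum-rich (10) arrays; circles are experiment A, squares B and triangles C, lines are means and error bars 1 SD. Groups overlap in all but Nrn1, and Slc17a7 did not pass the test. Psd is low in striatum-rich arrays of experiments B and C and in some arrays of neither group.

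Markers of other cells that a frontal lobe piece can hold gave few or no calls, where over all 8003 genes 2.32% were higher and 1.34% lower. Of 17 astrocyte, 13 microglia, 14 endothelial, 9 choroid plexus, 17 meningeal, 4 ependymal, 3 blood and 6 fast muscle genes tested, 0 were called in either direction, where 1367 of all 8003 genes had an unadjusted limma p under 0.05 and these lists held 2, 1, 1, 0, 0, 1, 0 and 0 such genes. Of 7 genes of septum, hypothalamus and preoptic area, 6 were positive, against 4093 of all 8003 genes, and the list median was 0.50. None of these 6 passed, and the forebrain transcription factor Lhx2 was lower (-0.41 ± 0.10). Lhx2 did not pass with the beta-actin ratio in the fit, or without the array of high ratio, animal 4 at 50 mg/kg in A or animal 2 at 0.5 mg/kg in B. The hypothalamic peptides Oxt (1.32 ± 0.88, adjusted p = 0.486) and Avp (1.17 ± 0.72, adjusted p = 0.439) had the widest errors. Oxt reached 12.21 in a striatum-rich and 12.05 in a striatum-poor array, against group medians of 6.97 and 6.27. Of 5 compartment genes of striatal patch and matrix 1 was higher, Rasgrp2, and of 6 ventral striatum genes none passed, where 2 had an unadjusted limma p under 0.05. Of 4 thalamic and 4 olfactory bulb genes none passed, with 0 and 1 under that unadjusted p. Of 7 striatal interneuron genes Slc5a7 was higher and 0 lower, and 2 passed without the array of high beta-actin ratio, animal 3 of the vehicle group in A or animal 3 of that group in C. Of 23 activity-regulated genes Rgs2 was higher and Nr4a3 and Nrn1 lower.

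The 19 arrays of neither group gave a check on arrays the sorting had set aside. There limma fitted each probe set's slope on the score, with the experiment again included. Of 11106 probe sets 15 rose with the score (0.135%) and 1 fell (0.009%). Without the sorting genes 12 rose, and all 12 were among the 236 higher in striatum-rich arrays. The 11 named ones were Pde1b, Adcy5, Drd1, Ppp1r1b, Rasgrp2, Gng7, Rgs9, Rarb, Dgkb, Ptpn5 and Asic4. The probe set that fell carries no single gene symbol and differed by -0.17 between the groups without passing.

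Slopes in these arrays are log2 units of level per log2 unit of score. Pde1b ran from 7.40 through a median of 8.83 to 9.69 in the 19 arrays and rose by 1.32 ± 0.18 (limma adjusted p = 7.30e-04). Adcy5 rose by 0.96 ± 0.10 (limma adjusted p = 3.73e-05), Ppp1r1b by 0.84 ± 0.12 (limma adjusted p = 7.97e-04) and Rarb by 0.66 ± 0.09 (limma adjusted p = 7.74e-04). Dgkb, a diacylglycerol kinase, rose by 0.61 ± 0.08 and Asic4, an acid-sensing channel subunit, by 0.50 ± 0.09. They differed by 0.88 and 1.03 between the groups, which did not overlap. Tac1 had a slope of 1.26 ± 0.27 that did not pass (adjusted p = 0.0873).

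Over the 236 higher probe sets 217 had positive slopes in these arrays (91.9%, against 48% of all probe sets), and 73 had an unadjusted limma p under 0.05. Over the 146 lower ones 115 had negative slopes (78.8%, against 52%), 11 had such a p and none passed. Of the 24 tested projection neuron genes 23 had positive slopes and 8 passed. Of the 24 cortical excitatory genes 17 had positive slopes there, against 5 with positive differences between the groups, and of the 15 myelin genes 11 had positive slopes and none passed.

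**Figure D5:**
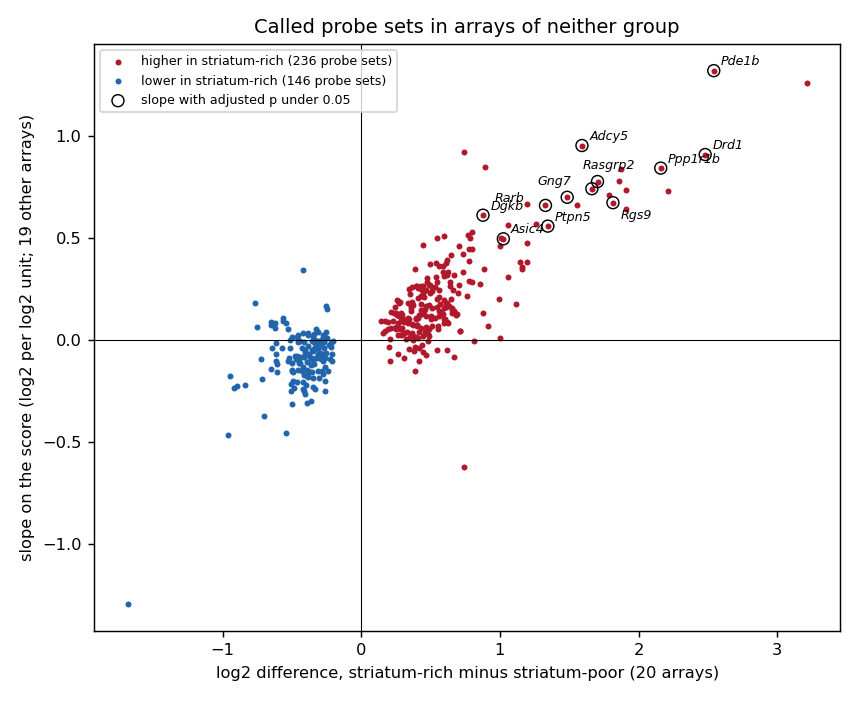
Log2 difference between striatum-rich and striatum-poor arrays (x axis, 20 arrays) against the slope on the score in the 19 arrays of neither group (y axis, log2 per log2 unit of score) for 236 higher and 146 lower probe sets; circled points passed at an adjusted p under 0.05 in the 19 arrays. Most higher probe sets lie above 0 and all circled ones are striatum-rich genes, with Pde1b at the top right.

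The slope on the score over all 39 arrays was also compared between experiments by a limma F test. No probe set of 11106 passed (0%), with a smallest adjusted p of 0.297, and 657 had an unadjusted p under 0.05. Of these, 50 were among the 236 higher and 14 among the 146 lower probe sets. For Ppp1r1b the slopes were 0.82 in A, 0.96 in B and 0.87 in C, and for Drd1 1.06, 1.08 and 0.98. For Psd they were -0.20, -0.91 and -1.49, and for Mog 0.06, 0.30 and 0.46. These differences of slope did not pass after adjustment, which does not show that the experiments were alike.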

How the data were processed

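Intensities of 15923 Affymetrix probe sets in 46 arrays were deposited on a linear scale, and the labels' protocols give 15 ug of RNA and biotin labelling. The sources used here do not give the summarising software. Each array was scaled to the same median, floored at an intensity of 11.0, taken to log2 and quantile normalised. Probe sets with a mean under the 30th percentile were left out, which left 11106. These log2 values were computed here from the deposited intensities. Groups were compared in limma 3.58.1 (lmFit and eBayes with trend, experiment as a term, two-sided, Benjamini-Hochberg adjusted p over all 11106). The members and gene lists were chosen with earlier results of these data known. Named genes were the 15 largest calls in each direction with the same direction in every experiment, up to 6 members of each list with the smallest p, all projection neuron members, and the 10 smallest p in each direction in the 19 arrays; sorting genes were left out. Probe sets of several symbols or none were not named. Nothing says that animals were handled separately, so p-values measure only the spread between these arrays. Alternatives covered scaling, filter, floor, sorting gene, group size, experiment, RNA quality, a replicate block and leaving out each array. The fit was also run on simulated data in which probe sets varied independently and the groups were fixed beforehand. That run cannot speak to arrays sorted on measured genes.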

Additional observations from a re-analysis of the deposited data

Results flagged for a closer look

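In 132 groups of 10 arrays, 17 held an array far from the other 9 by Dixon's test, which chance gives for about 1 group in 20. Among genes, Rgs9 was 9.52 log2 intensity in the striatum-poor array of 10 mg/kg animal 1 of experiment C, Gng7 was 12.06 in the striatum-rich array of 1 mg/kg animal 3 of C, Adcy5 was 11.11 in that of vehicle animal 1 of C, and Noa1 was 7.96 in that of 50 mg/kg animal 4 of A. The last array also had the highest summed intensity of striatal interneuron genes (9927) and of septal and hypothalamic genes (16149). In striatum-poor arrays the hypothalamic sum reached 9797 in 1 mg/kg animal 2 of A. The sum of phosphodiesterases and cyclases was lowest, at 13105, in 10 mg/kg animal 3 of A, which had a choroid plexus sum of 20722. The kinase A and phosphatase sum was 70372 in vehicle animal 3 of A.

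The striatum-rich array of 5 mg/kg animal 1 of B, with a median intensity of 112, had a microglial sum of 16171 and an endothelial sum of 9618. The endothelial sum was 8275 in striatum-poor 10 mg/kg animal 1 of C. The striatum-poor array of 1 mg/kg animal 1 of C had a beta-actin ratio of 4.72, a Gapdh ratio of 2.42 and a median intensity of 229.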

How the results depend on the processing

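Higher and lower calls numbered 239 and 146. They numbered 145 and 68 with the beta-actin ratio in the fit, 364 and 347 with the score over 39 arrays, 71 and 25 with 5 arrays a group, 47 and 46 on intensities as deposited, 36 and 4 within experiment A, 48 and 3 within B, and 3 and 1 within C. In alternatives chosen after seeing the data they numbered 77 and 22 among dosed and 8 and 0 among vehicle arrays. Lower calls were 244 when sorted by Penk and 271 with 13 arrays a group. Calls were 62.1% higher, against 50.5% as deposited (median shift -0.12), 51.2% with 39 arrays and 52.1% by Penk. With the replicate block 104 and 45 passed; animal numbers share only a number (consensus correlation -0.078). Leaving out 1 array gave 196 to 258 higher and 88 to 201 lower calls, with 88 lower without 0.5 mg/kg animal 2 of B. In the 19 arrays it gave 12 to 18 rising and 0 to 1 falling calls, with 0 falling without 10 mg/kg animal 5 of A or 5 mg/kg animal 3 or 4 of C. Falling calls were also 0 under median scaling only and with no experiment term. Foxp1 was -0.22 within C. Of 73 named called genes 58 passed without each of the 20 arrays. Signal over background limits dim probe sets.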
